A study of Homo sapiens with 17 samples.

Results

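Regions of RNA recovered with both ZNF184 and RANGAP1 were compared between these proteins in 293T, a cell line derived from human embryonic kidney. The deposited data are lists of eCLIP peaks, 2 libraries for ZNF184 and 2 for RANGAP1. Same-strand peaks of the 4 lists with an overlap of 1 nt or more were merged, and a merged region with a deposited peak in all 4 lists was taken as a matched region. There were 5504 matched regions among 150764 merged regions of the 4 lists (3.65%), while all 11 lists of the series merged into 219602 regions. Each matched region has 4 values, the authors' log2 fold of eCLIP reads over the input of that protein, in ZNF184 replicates 1 and 2 and in RANGAP1 replicates 1 and 2. Values are given in that order.

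ZNF184 is a zinc finger protein of the family best known for binding DNA. RANGAP1 activates the GTPase of Ran, the small G protein that gives nuclear transport its direction, and sits largely at the cytoplasmic side of the nuclear pore. In eCLIP, ultraviolet light links proteins to the RNA they touch, the RNA is trimmed with RNase, the protein is captured with an antibody, and its RNA is sequenced from a window of a gel above the protein's size. The size-matched input is RNA from the same gel window of a lysate that was not immunoprecipitated, so it carries the RNA of all proteins of that size range. A fold over input above 0 on the log2 scale means that a stretch took a larger share of the eCLIP reads than of the input reads.

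The series holds 17 samples, 11 eCLIP libraries of 6 proteins and 1 input for each protein. All 4 libraries used here came from 293T cells under standard culture, irradiated at 254 nm with 400 mJ/cm2, and they differ in the antibody, against ZNF184 or against RANGAP1. The labels give no genotype and no treatment beyond the irradiation. The series calls the replicates biological and says no more on how they were grown, and nothing in the lists checks an antibody against its target. Both replicates of a protein share 1 input, so the spread between replicates holds no error of the input and p-values measure the spread between eCLIP libraries only.

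The lists held 63198 and 53807 peaks for ZNF184 and 53243 and 51526 for RANGAP1. Total reads per library are unknown, but the folds are ratios of whole reads times 1 constant, from which the reads behind most peaks could be recovered. Input depth over eCLIP depth was 1.36 and 1.53 for ZNF184 and 1.48 and 1.78 for RANGAP1. In matched regions the median peak had 19 and 19 eCLIP reads with ZNF184 and 14 and 13 with RANGAP1. The median input reads were 12 and 12 for ZNF184 and 11 and 11 for RANGAP1. Where a peak lay below input, or its p-value was saturated, only the smallest whole numbers with its ratio are known, and such reads are given as "at least". A counting interval that rests on unsettled reads is at its widest. Matched regions had a median length of 81 nt (3 to 696 nt), 5445 were nuclear and 59 mitochondrial.

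Positions are in hg19, as the lists give them, on the strand of the RNA. The lists carry no gene names and no annotation of hg19 was used here, so loci are named by position and the parts of a transcript could not be assigned. A run is a set of matched regions of 1 strand with gaps under 5000 nt, and it stands in for a locus.

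The proteins ranked the matched regions differently. Across the 5504 regions, Spearman's rho of the folds was 0.79 between the ZNF184 libraries, 0.89 between the RANGAP1 libraries, and 0.19 to 0.21 between a library of ZNF184 and one of RANGAP1. These correlations are descriptions across regions, in which replicates also share an input. The median fold was 1.0 and 1.13 with ZNF184 and 0.82 and 0.88 with RANGAP1, a shift of 0.21 between the means of these medians. The difference of a region, its mean ZNF184 fold minus its mean RANGAP1 fold, had a median of 0.18, and its 5th and 95th percentiles were -2.10 and 2.82. The median standard deviation between replicates was 0.35 for ZNF184 and 0.25 for RANGAP1.

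A region was called where the difference was at least 1 (2-fold) in size, both values of one protein lay above both of the other, and the Benjamini-Hochberg adjusted p of limma's moderated test over all 5504 regions was under 0.05. There were 1371 regions called higher with ZNF184 (24.9%) and 823 higher with RANGAP1 (15.0%), or 39.9% in either direction. The groups did not overlap in 2291 regions with ZNF184 above (41.6%) and in 1665 with RANGAP1 above (30.3%). ZNF184 thus had 62.5% of the calls. With each library centred on its own median the calls were 1160 and 1090, a ZNF184 share of 51.6%, so that most of the excess of ZNF184 calls moved with the shift in medians. The replicate spread leaves out the counting error of the input. In the 2993 regions whose reads are settled in all 4 libraries, the median standard error was 0.88 by counting and 0.42 in the fit. Where the 95% counting interval of the difference also had to exclude 0, 852 of the called regions remained higher with ZNF184 (15.5%) and 429 with RANGAP1 (7.79%). Of the 539 and 345 calls with settled reads, 255 and 137 remained. Without RANGAP1 replicate 1 the calls were 799 and 460, and without RANGAP1 replicate 2 they were 771 and 335.

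**Figure D1:**
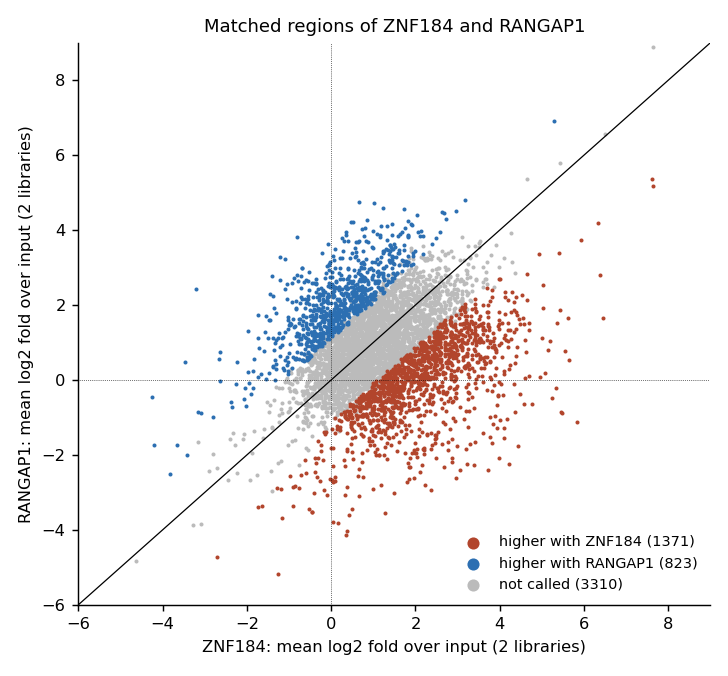
Mean log2 fold over input of each matched region with ZNF184 (horizontal axis, 2 libraries) and with RANGAP1 (vertical axis, 2 libraries), 1 point for each of 5504 regions, with a line of equal folds. The 1371 regions called higher with ZNF184 lie below the line and the 823 called higher with RANGAP1 above it, and many called regions lie near 0 on the axis of the other protein.

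In many called regions the other protein was below its own input. Of the 1371 regions higher with ZNF184, 675 had both means above input, 661 had ZNF184 above and RANGAP1 below input, and 35 had both below. Of the 823 regions higher with RANGAP1, 469 had both means above input, 335 had ZNF184 below and RANGAP1 above input, and 19 had both below. Over all 5504 matched regions, 83.9% and 84.0% were above input in the ZNF184 libraries and 77.4% and 77.5% in the RANGAP1 libraries. In regions not called the shares were 86.3% and 84.0%, and 83.8% and 84.9%. A call needs the other protein to be lower by at least 1 on these same folds, so part of the contrast is built in.

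A fold can differ through the eCLIP reads or through the input, and in called regions whose reads could be compared the inputs differed more than the eCLIP reads. The reads of the proteins can be set side by side where all 4 peaks cover the same stretch (at least 50% of each library's peaks in the stretch that all 4 share). This held for 1508 regions, of which 1500 had read ratios and are used here. Reads here are not scaled for depth, and unsettled reads enter at their smallest whole numbers. In the 500 of them called higher with ZNF184, the median log2 ratio of ZNF184 to RANGAP1 reads was -1.80 in the inputs and 0.65 in the eCLIP libraries. In the 210 called higher with RANGAP1 it was 1.97 in the inputs and 0.23 in the eCLIP libraries. In the 790 not called it was 0.15 in the inputs and 0.44 in the eCLIP libraries. A region higher with ZNF184 typically had 12 ZNF184 input reads against 46 RANGAP1 input reads, and a region higher with RANGAP1 had 45 ZNF184 input reads against 11 RANGAP1 input reads. The ZNF184 input was the lower in 89.0% of regions higher with ZNF184, in 2.38% of those higher with RANGAP1 and in 40.9% of those not called.

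With at least 10 input reads in each library (788 regions) the median input ratio was -1.45 in regions higher with ZNF184 and 1.95 in regions higher with RANGAP1, beside eCLIP ratios of 0.86 and 0.14. With reads settled in all 4 libraries (802 regions) the input ratios were -2.00 and 1.74, beside eCLIP ratios of 0.05 and 0.30. Across the 1500 regions, Spearman's rho of the difference was -0.79 with the input ratio and 0.11 with the eCLIP ratio. The input is a term of the fold, so the first is partly arithmetic, and both are descriptions. In these 802 regions with settled reads, which needs a peak above input in every library, rho between a ZNF184 and a RANGAP1 library was 0.61 to 0.73 for eCLIP reads, 0.46 to 0.48 for input reads and 0.06 to 0.07 for folds. The same limma test on log2 eCLIP reads alone, each library centred on its median, called 0 of these 802 regions, with 234 at an unadjusted p under 0.05 and a lowest adjusted p of 0.0602, where the folds gave 193 calls for ZNF184 and 81 for RANGAP1. The eCLIP reads were not equal, since 203 of the 802 regions differed by at least 1 on the log2 scale and the median size of the difference was 0.56. Of the 274 regions called on the folds, 149 had a centred eCLIP difference of the opposite sign to the fold difference. Every matched region had a peak in all 4 eCLIP libraries, so regions without eCLIP reads of one protein are not among them. What part of a difference in input comes from the gel window cut for each protein, and what part from the lysates or libraries, cannot be told apart with 1 input for each protein.

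**Figure D2:**
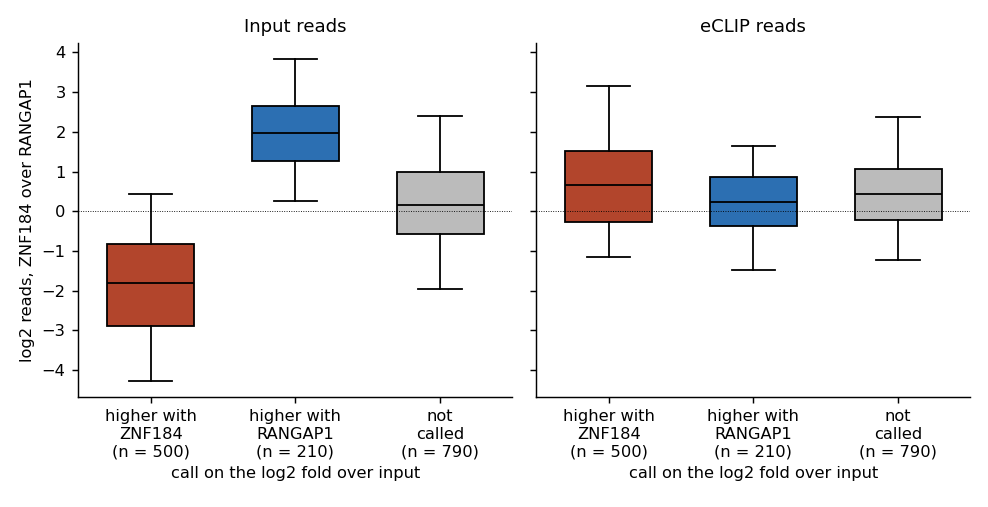
Log2 ratio of ZNF184 to RANGAP1 reads in the inputs (left panel) and in the eCLIP libraries (right panel) of 1500 matched regions whose 4 peaks cover a common stretch, by the call on the folds. Boxes give quartiles with the median as a line and whiskers the range from the 5th to the 95th percentile of regions. The input ratios of the called groups lie on opposite sides of 0 (medians -1.80 and 1.97) and the eCLIP ratios largely overlap (medians 0.65 and 0.23).

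Loci were read from runs of neighbouring regions. The 5504 regions formed 3141 runs, of which 486 had at least 3 regions. A run was taken to favour a protein with at least 3 regions called in its direction and none in the other. By this rule 105 runs favoured ZNF184 (21.6%) and 21 favoured RANGAP1 (4.32%). The rule does not need a difference along the whole run. The median difference of a run was -0.13 to 4.41 in those favouring ZNF184 and -2.90 to -0.61 in those favouring RANGAP1. At the lowest of the former, chr19:1269340-1274299 on the plus strand, 3 of 10 regions were called. The 105 runs held 609 matched regions, 472 of them called, on 22 chromosomes. Their median folds were 1.31 and 1.77 with ZNF184 and -0.25 and -0.37 with RANGAP1. The 21 runs held 96 matched regions, 64 of them called, on 12 chromosomes. Their median folds were 0.00 and 0.25 with ZNF184 and 1.56 and 1.86 with RANGAP1. Neighbouring regions of a transcript share its level in the inputs and are not independent. In the runs favouring ZNF184, the regions with a common stretch (288) had a median log2 ratio of ZNF184 to RANGAP1 reads of -1.68 in the inputs and 0.47 in the eCLIP libraries. It was -1.46 and 0.57 in the 184 of them with at least 10 input reads, and -1.82 and -0.16 in the 97 with settled reads. In those favouring RANGAP1 (40 regions) it was 1.40 in the inputs and 0.12 in the eCLIP libraries. The input ratio was nearer 0 in the 31 of them with at least 10 input reads (0.94, beside 0.05 in the eCLIP libraries) and in the 21 with settled reads (0.64, beside 0.05). Their median fold difference was also nearer 0, at -1.32 in the 40 regions, -1.23 in the 31 and -0.41 in the 21. For the runs favouring ZNF184 it was 1.85 in the 288 regions, 1.65 in the 184 and 1.65 in the 97. Without RANGAP1 replicate 1 the loci were 63 and 4, and without RANGAP1 replicate 2 they were 55 and 3. With each library centred they were 88 and 30.

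Of the loci favouring ZNF184, some were called along their whole length. On chromosome 6, chr6:74227636-74230752 on the minus strand had 11 matched regions, and all 11 were called higher with ZNF184. Their folds ran from 0.81 to 2.77 and from 0.97 to 3.20 with ZNF184, and from -2.06 to -0.26 and from -2.70 to -0.63 with RANGAP1, so that at no region did the proteins overlap and ZNF184 stayed above and RANGAP1 below input throughout. The 5′-most region, chr6:74230721-74230752, had folds of 2.68 and 3.20 with ZNF184 and -0.26 and -0.66 with RANGAP1, a difference of 3.40 (SE 0.42, limma adjusted p 0.000406). There, ZNF184 had 33 and 42 eCLIP reads over 7 input reads. RANGAP1 had at least 75 eCLIP reads over at least 131 input reads in replicate 1, and at least 16 over at least 45 in replicate 2. RANGAP1 replicate 1 thus had more eCLIP reads than ZNF184, which is not known for replicate 2, and the RANGAP1 input reads were more than those of ZNF184 in both. These reads are not scaled for depth. At chr6:74229207-74229241 the ZNF184 libraries had 50 and 54 eCLIP reads over 30 input reads, and the RANGAP1 libraries at least 32 and 29 over at least 167.

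The locus chr1:173833292-173836864 on the minus strand, with 9 of 9 regions called, had a larger median difference, 4.05. Its median folds were 2.01 and 3.44 with ZNF184 and -1.43 and -1.85 with RANGAP1. At chr1:173836016-173836074 the folds were 3.62 and 5.15 with ZNF184 and 1.18 and 0.08 with RANGAP1, a difference of 3.76 (SE 0.57, limma adjusted p 0.00100). ZNF184 had 63 and 163 eCLIP reads over 7 input reads, and RANGAP1 had 347 and 124 over 200. ZNF184 replicate 2 was above replicate 1 at all 9 regions, and at the 3′-most, chr1:173833292-173833351, replicate 1 was below input (-0.63) and replicate 2 at 2.08.

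The other loci with the most regions called for ZNF184 had smaller median differences. On the X chromosome, chrX:73040818-73053205 on the minus strand had 12 of 12 regions called, with a median difference of 2.19 and median folds of 1.43 and 1.65 with ZNF184 and -0.42 and -0.54 with RANGAP1. At chrX:73053157-73053205, ZNF184 had 582 and 678 eCLIP reads over 302 and 343 input reads, and RANGAP1 at least 87 and 60 over at least 229 and 233. The difference was 2.45 (SE 0.40, limma adjusted p 0.00139) with a counting interval of 2.09 to 2.80. On chromosome 5, chr5:180663961-180670900 on the minus strand had 11 of 11 regions called with a median difference of 2.17, and its folds had medians of 1.05 and 1.80 with ZNF184 and -0.67 and -0.89 with RANGAP1. On chromosome 1, chr1:45241248-45244269 on the plus strand had 12 of 14 regions called and a median difference of 1.65. Its differences ran from 0.01 at chr1:45241549-45241611 to 5.22 at chr1:45242162-45242233, where the folds were 3.92 and 4.78 with ZNF184 and -0.48 and -1.24 with RANGAP1. The remaining 3 had 8 called regions each, chrX:71492483-71497079 (minus strand, median difference 2.49, 9 regions), chr6:33239853-33244184 (plus strand, 2.47, 10 regions) and chr11:65266517-65272748 (plus strand, 1.69, 12 regions).

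Loci favouring RANGAP1 had fewer called regions, and none of the 8 with the most calls had over 4. The first by rule was chr8:37553310-37557486 on the plus strand, where 4 of 8 regions were called. The regions towards the 5′ end were higher with RANGAP1 and those towards the 3′ end were high in both proteins. Over the 4 regions nearest the 5′ end the folds were -1.09 to -0.05 and 0.03 to 1.62 with ZNF184, and 2.61 to 3.42 and 2.86 to 4.25 with RANGAP1, with differences of -2.78 to -3.41. Over the 4 regions nearest the 3′ end they were 1.68 to 2.71 and 2.49 to 3.92 with ZNF184, and 2.00 to 2.45 and 2.17 to 2.58 with RANGAP1, and the differences, -0.25 to 1.22, were not called. At chr8:37556216-37556328 the fold was -1.09 and 0.03 with ZNF184 and 2.67 and 3.10 with RANGAP1, a difference of -3.41 (SE 0.47, limma adjusted p 0.000653). ZNF184 had at least 97 and 142 eCLIP reads over at least 314 and 293 input reads, and RANGAP1 had 109 and 130 over 22 and 27. The next region, chr8:37556802-37556840, had 43 and 77 eCLIP reads over 13 input reads with ZNF184 and 52 and 47 over 14 with RANGAP1.

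At chr19:56181802-56186017 on the plus strand all 3 regions were called for RANGAP1, with a median difference of -2.90. At chr19:56185965-56186017 the folds were -1.05 and 0.35 with ZNF184 and 2.38 and 2.72 with RANGAP1. ZNF184 had at least 37 eCLIP reads over at least 104 input reads in replicate 1 and 89 over 107 in replicate 2, and RANGAP1 had 74 and 78 over 21. On chromosome 16, chr16:21415258-21416251 on the minus strand had 3 of 3 regions called, but RANGAP1 had 4 input reads at 2 of them and 9 at the other, and the counting interval excluded 0 at 1 region. On chromosome 20, chr20:34634709-34638879 on the minus strand had 3 of 3 called with a median difference of -2.58, and the interval excluded 0 at 1. On chromosome 3, chr3:129033975-129035041 on the minus strand had 3 of 4 called. One of them, chr3:129034747-129034805, had folds of -0.94 and -0.67 with ZNF184 and 3.65 and 4.0 with RANGAP1, a difference of -4.63 that rests on 2 RANGAP1 input reads. The others were chr12:49434266-49435021 (minus strand, 3 of 3, median difference -2.23), chr1:226250424-226252057 (plus strand, 3 of 3, -1.93) and chr14:23528407-23532257 (minus strand, 3 of 4, -1.82).

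Some runs held calls in both directions. Among the 181 runs with at least 5 regions, 109 had calls only for ZNF184, 25 only for RANGAP1, 38 for both and 9 had none. These counts do not require the counting interval to exclude 0. Where it must, some of the 38 keep calls in a single direction or none. At chr12:54674530-54680026 on the plus strand, 2 of the 8 regions nearer the 5′ end were called for ZNF184 and all 3 nearest the 3′ end for RANGAP1. Of these 3, chr12:54679907-54679957 had folds of -2.21 and -1.89 with ZNF184 and -0.76 and 0.31 with RANGAP1. At chr3:184033922-184052786 on the plus strand the order was the opposite, with 3 regions towards the 5′ end called for RANGAP1 and 2 towards the 3′ end for ZNF184. Its 5′-most region, chr3:184033922-184033967, had folds of 0.08 and -0.25 with ZNF184 and 2.09 and 2.37 with RANGAP1. Its 3′-most, chr3:184052687-184052786, had folds of 2.52 and 2.44 with ZNF184 and 0.92 and 1.40 with RANGAP1, with a counting interval of -0.20 to 2.85 that includes 0. At chr16:29816128-29828124 on the plus strand, regions less than 100 nt apart were called in opposite directions. The difference was 1.40 at chr16:29822111-29822153 and -1.27 at chr16:29822178-29822271. With the counting interval excluding 0, each of these runs on chromosomes 12, 3 and 16 kept 1 call for ZNF184 and 2 for RANGAP1.

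**Figure D3:**
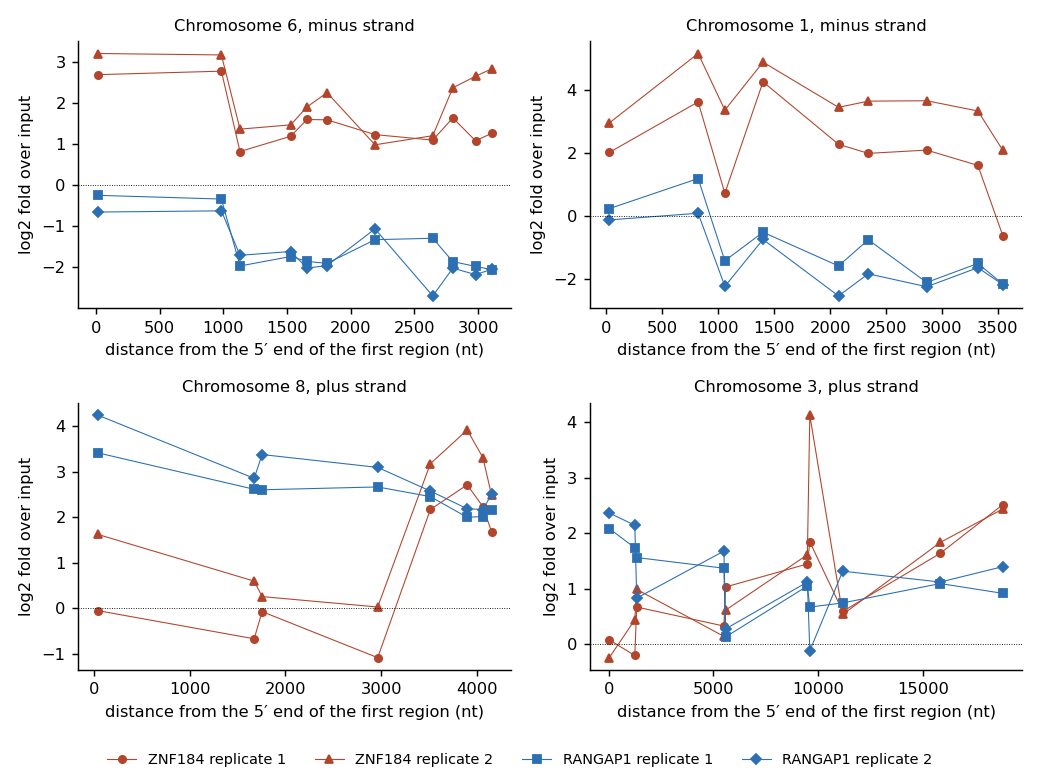
Log2 fold over input of each matched region along 4 runs (vertical axis), by distance in nt from the 5′ end of the run (horizontal axis), with 1 line for each of 2 ZNF184 and 2 RANGAP1 libraries. The runs on chromosomes 6 and 1 have ZNF184 above RANGAP1 at every region in both pairs of replicates, the run on chromosome 8 has RANGAP1 above ZNF184 over its first 4 regions and the proteins together over its last 4, and the run on chromosome 3 has calls in both directions.

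Over runs of at least 5 regions, calls for ZNF184 were spread along the run. In the 180 nuclear runs of that size, 39.7% of regions in the stretch nearest the 5′ end, 36.2% in the middle stretch and 34.3% in the stretch nearest the 3′ end were called higher with ZNF184, each run being cut into 3 stretches of equal length. For RANGAP1 the shares were 11.5%, 6.08% and 6.20%. Folds of both proteins were highest towards the 5′ end. Medians were 1.18 and 1.41 with ZNF184 and 0.60 and 0.64 with RANGAP1 in the 5′ stretch. They were 0.78 and 0.90 with ZNF184 and 0.15 and 0.09 with RANGAP1 in the 3′ stretch. The median difference was 0.72 in the 5′ stretch, 0.65 in the middle and 0.68 in the 3′ stretch. With at least 10 input reads the order was not kept, and the median differences were 0.47, 0.54 and 0.61. The shares called were then 32.8%, 34.5% and 32.0% for ZNF184 and 11.3%, 5.34% and 4.43% for RANGAP1. Between the end regions of a run, the difference was higher at the 3′ end in 81 runs and at the 5′ end in 99.

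Calls differed with the size of the run and the length of the region. Of regions alone in their run, 19.5% were called higher with ZNF184 and 18.8% with RANGAP1, and in runs of at least 5 regions the shares were 36.4% and 8.54%. These groups also differed in input, since the lowest input reads of a region had a median of 4 in the former and 13 in the latter. With the counting interval excluding 0, calls were 188 and 160 of the 2184 regions alone in their run. They were 395 and 85 of the 1370 regions in runs of at least 5. Of regions up to 50 nt long, 37.2% were called higher with ZNF184 and 8.70% with RANGAP1, and of regions over 200 nt, 7.50% and 25.7%. Through the 5 length classes each share for ZNF184 was lower, and each for RANGAP1 higher, than in the class before. With at least 10 input reads the shares were 38% and 5.02% in the shortest class and 12.5% and 21.9% in the longest. The medians of the shortest class were 1.06 and 1.24 with ZNF184 and 0.45 and 0.47 with RANGAP1. In the longest class they were 0.98 and 1.13 with ZNF184 and 1.52 and 1.85 with RANGAP1, so that the RANGAP1 folds changed more with length. With at least 10 input reads both changed, in opposite directions. From the shortest to the longest class, medians went from 0.73 and 0.91 to 0.47 and 0.68 with ZNF184. With RANGAP1 they went from 0.13 and 0.00 to 0.96 and 1.04. The length is that of the merged region and so depends on the peaks of all 4 lists, and these shares were looked at after the calls were known.

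**Figure D4:**
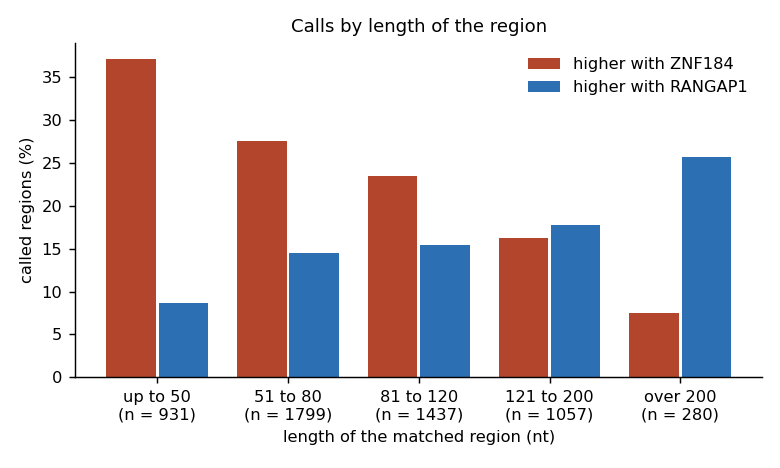
Share of matched regions called higher with ZNF184 (left bar) and with RANGAP1 (right bar), in percent, by length of the merged region in nt, with the number of regions under each class. The ZNF184 share goes down from 37.2% to 7.50% and the RANGAP1 share up from 8.70% to 25.7% with length.

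Single regions with the largest differences were taken from those with at least 5 input reads for each protein and a counting interval that excludes 0, 12 in each direction. For ZNF184 they ran from 5.28 to 6.46 and for RANGAP1 from -3.94 to -3.41. These 24 were chosen for their size on the same folds, and 0 of them were among the regions tested on eCLIP reads alone. The largest was chr12:50850449-50850569 on the plus strand, with folds of 3.76 and 4.68 with ZNF184 and -2.12 and -2.36 with RANGAP1. The difference was 6.46 (SE 0.44, limma adjusted p 9.99e-05), with a counting interval of 5.92 to 6.99. ZNF184 had at least 1745 and 2343 eCLIP reads over at least 151 and 134 input reads, and RANGAP1 at least 27 and 19 over at least 173 and 173. The next were chr15:66795149-66795247 on the minus strand, with a difference of 6.17 (SE 0.57), and chr6:133136475-133136514 on the plus strand, with 6.07 (SE 0.56). At this chromosome 6 region ZNF184 had 70 and 131 eCLIP reads over 9 input reads and RANGAP1 at least 19 and 6 over at least 73. A second region of the same chromosome 15 run, chr15:66794359-66794419, had a difference of 5.65, with folds of 2.56 and 4.22 with ZNF184 and -2.40 and -2.11 with RANGAP1. On the X chromosome, chrX:70766893-70767004 on the plus strand had folds of 4.69 and 5.77 with ZNF184 and -0.53 and -0.41 with RANGAP1.

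For RANGAP1 the largest difference was at chr3:96336811-96336856 on the minus strand, with folds of -3.73 and -3.20 with ZNF184 and 0.36 and 0.58 with RANGAP1 (difference -3.94, SE 0.41, limma adjusted p 0.000223). RANGAP1 was only slightly above its input there, with 34 and 27 eCLIP reads over 39 and 40 input reads, and ZNF184 had at least 14 and 18 over at least 253. At chr12:53845980-53846166 on the plus strand RANGAP1 was itself well above input. Folds were -2.15 and -0.31 with ZNF184 and 2.78 and 2.54 with RANGAP1, a difference of -3.88 (SE 0.57). The ZNF184 libraries had at least 46 and 121 eCLIP reads over at least 129 and 185 input reads, and the RANGAP1 libraries 68 and 61 over 17 and 20. At chr20:34634709-34634777, in the run on chromosome 20 above, folds were -0.47 and 0.33 with ZNF184 and 3.41 and 3.87 with RANGAP1 (difference -3.71, SE 0.44). ZNF184 replicate 2 had 84 eCLIP reads over 102 input reads, and RANGAP1 72 and 82 over 10.

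A few regions were far above input in all 4 libraries. The highest by the lowest of its values was chr17:18965402-18965452 on the plus strand, with folds of 6.55 and 8.72 with ZNF184 and 8.93 and 8.85 with RANGAP1. Its difference of -1.25 was not called (SE 0.62, limma adjusted p 0.131). The second, chr11:32165337-32165358 on the minus strand, had 5.62 and 7.40 with ZNF184 and 6.32 and 6.78 with RANGAP1, a difference of -0.04 (SE 0.56). Of the 5, the adjoining chr6:10887836-10887838 and chr6:10887839-10887859 on the plus strand were called for ZNF184 by 2.25 and 2.44, and chr6:31958260-31958286 on the plus strand for RANGAP1 at -1.60. The highest peaks of the regions on chromosomes 17 and 11 and of this last one had a saturated -log10 p of 15.66 in all 4 libraries. In the 4 lists, all 213 peaks at that value had a smallest whole-number input of 1 to 4 reads.

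A stricter threshold was a log2 fold of at least 3 and a -log10 p of at least 3 in both replicates. Of the 5504 matched regions, 178 met it with ZNF184 alone, 99 with RANGAP1 alone, 14 with both and 5213 with neither. Few regions met it with either protein, which bounds the shared count but does not fix it at 14. Whether the shared count differs from that of unrelated sets was not tested. Of the 178, 162 were called higher with ZNF184, and of the 99, 83 were called higher with RANGAP1. These counts depend on the same folds as the calls.

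Mitochondrial regions had medians below input with both proteins and differed between them by stretch. Median folds were -0.40 and -0.55 with ZNF184 and -0.42 and -0.75 with RANGAP1. The median fold of the 59 mitochondrial regions minus that of the nuclear ones was -1.42 and -1.68 with ZNF184 and -1.27 and -1.67 with RANGAP1, which overlap. Of the 59, 16 were called higher with ZNF184 (27.1%) and 12 with RANGAP1 (20.3%), beside 24.9% and 14.9% of nuclear regions. With the counting interval excluding 0, 15 and 8 of these mitochondrial calls remained. On the plus strand, the first 7 matched regions, chrM:589-638 to chrM:1617-1656, were all called for ZNF184. At chrM:693-781 folds were 1.71 and 1.94 with ZNF184 and -2.16 and -2.28 with RANGAP1, a difference of 4.05 (SE 0.39, limma adjusted p 0.000221). At chrM:1617-1656, where ZNF184 was highest on this chromosome, they were 4.91 and 4.50 with ZNF184 and 0.30 and -0.11 with RANGAP1, a difference of 4.61 (SE 0.41). There, ZNF184 had 287 and 175 eCLIP reads over 14 and 12 input reads, and RANGAP1 had 58 over 69 in replicate 1. The direction of the calls turned beyond that region. At chrM:1826-1867 folds were -4.93 and -3.59 with ZNF184 and -0.16 and -0.75 with RANGAP1, a difference of -3.81 (SE 0.51), and chrM:1868-1935 and chrM:2112-2189 were also called for RANGAP1. All 4 libraries were below input at these 3 regions, so RANGAP1 was less depleted there rather than enriched. Reads could not be recovered there for every library, so these 3 calls have no counting interval.

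Further along the plus strand, chrM:5424-5484 was a region called for RANGAP1 with RANGAP1 above input. Folds were -1.59 and -1.56 with ZNF184 and 1.64 and 0.91 with RANGAP1, and the difference was -2.85 (SE 0.42, limma adjusted p 0.000853). At chrM:10010-10050 folds were 1.21 and 3.01 with ZNF184 and -0.35 and 0.16 with RANGAP1. On the minus strand there were 5 matched regions. One of them, chrM:5828-5859, was above input in all 4 libraries, at 2.61 and 3.71 with ZNF184 and 3.52 and 2.88 with RANGAP1, and the proteins overlapped. The difference was 2.35 at chrM:15957-15989 and -1.75 at chrM:14300-14439.

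**Figure D5:**
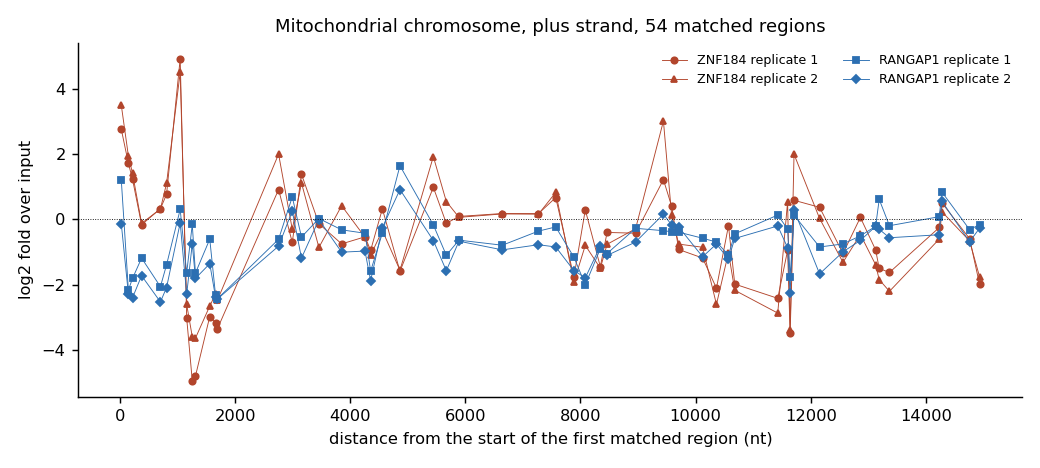
Log2 fold over input of the 54 matched regions of the mitochondrial plus strand (vertical axis), by distance in nt from the start of the first of them (horizontal axis), with 1 line for each of 2 ZNF184 and 2 RANGAP1 libraries. The ZNF184 libraries are above both RANGAP1 libraries over the first 7 regions, reach 4.91 and 4.50 at the seventh, and lie below both RANGAP1 libraries over the next 4.

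VIM, RNF219 and NUMA1 had different median folds in the called groups, each against its own input, and those of AIFM1 lay closer together. Where VIM, an intermediate filament protein, had a peak, its median fold was -0.12 and -0.15 in regions higher with ZNF184, 1.79 and 1.39 in regions higher with RANGAP1 and 1.10 and 0.80 in regions not called. RNF219, a RING finger protein with 1 library, went the other way, at 0.30 in regions higher with ZNF184 and -0.51 in regions higher with RANGAP1, with -0.10 in regions not called. NUMA1, a protein of the mitotic spindle poles and nucleus, had -0.23 and 0.18 in regions higher with ZNF184, 0.54 and 0.82 in regions higher with RANGAP1 and 0.22 and 0.53 in regions not called. AIFM1, a mitochondrial flavoprotein, had 0.85 and 0.90 in regions higher with ZNF184, 0.70 and 0.68 in regions higher with RANGAP1 and 0.87 and 0.80 in regions not called. These medians cover only regions with a peak of that protein, between 36.9% and 70.5% of the called ones, and have no test, since regions are not replicates.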

How the data were processed

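Tools named in the submitters' processing notes, with no versions, are STAR, cutadapt, SAMtools, Picard and GATK, and the build is hg19. Neither how peaks were called nor whether PCR duplicates were removed is given in the sources used here. For each peak the deposited lists give the authors' -log10 p against the input (0 below input, at most 400) and the authors' log2 fold over the size-matched input. Lists were per library, not pooled.

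A library's value in a region was the length-weighted mean of its peaks. ZNF184 minus RANGAP1 was tested with limma 3.58.1 (lmFit and eBayes, R 4.3.3) on the 4 log2 folds, without a replicate block, over 5504 regions. An exact permutation test of 2 against 2 cannot go below 0.333. Reads were recovered from the folds (ratio tolerance 1e-07 on the log2 scale) and the p-values, and matched the ratio of small whole numbers for 96.6% to 98.0% of folds in a library. Counting intervals are 1.96 standard errors by the delta method, with the input counted once for each protein, and cover counting error only, since PCR reads are not independent molecules.

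On simulated data the test recovered 50% of planted differences of 1.5, 90% of 2 and 100% of 3, with 9 unchanged regions called. Each of these differences was planted in 50 of 5504 regions, while 39.9% of the matched regions were called in the deposited data. Whether these rates hold with the error of a shared input, or with that many changed regions, was not tested. Read recovery was right for 99.8% of simulated settled peaks. Regions were named by rule, as the 12 largest differences in each direction with at least 5 input reads (at most 2 to a run), the 8 loci in each direction with the most called regions, the 5 regions highest in all 4 libraries, mitochondrial regions, and loci called in both directions. Single regions inside a named locus were chosen after their values were seen. The members, thresholds and lists were chosen with earlier results of these data known. Gene lists and transcript parts, which need an annotation of hg19, were not analysed here, and no sequence of a region is given.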

Additional observations from a re-analysis of the deposited data

How the results depend on the processing

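In the order ZNF184 then RANGAP1, calls were 516 and 234 of 1508 regions with a common stretch (loci 39 and 3, median difference 0.42), 1041 and 469 of 3529 regions of at most 100 nt (loci 76 and 6, median difference 0.38), and 487 and 202 of 1778 regions with at least 10 input reads (loci 44 and 5, median difference 0.27). They were 852 and 429 with the counting interval excluding 0 (loci 79 and 13) and 638 and 308 with a difference of at least 2 (loci 45 and 3). Fewer regions enter, or a further condition applies, in each of these by construction. On eCLIP reads alone, an alternative chosen after seeing the data, limma called 0 and 0 of 802 regions (loci 0 and 0), with 234 at an unadjusted p under 0.05. The sign was opposite to that of the folds in 149 of the 274 called regions tested. Leaving out each library in turn gave 771 to 1495 and 335 to 852 calls, 55 to 118 and 3 to 14 loci, and a median difference of 0.15 to 0.26, with the lowest counts without a RANGAP1 library. The centred, highest-peak and trended-prior fits gave 1160 to 1384 calls for ZNF184 and 766 to 1090 for RANGAP1, and loci of 88 to 105 and 16 to 30. The replicate numbers did not pair the samples (Pearson's r of the replicate differences -0.06 over 5504 regions). With the replicate block, calls were 1246 and 742 and loci 98 and 15. The difference between proteins of mitochondrial minus nuclear medians was -0.08, and -0.39 with a common stretch, -0.33 at most 100 nt, and -0.28 to 0.12 leaving out each library. It changed sign without ZNF184 replicate 2 (0.05) and without RANGAP1 replicate 1 (0.12), and the cause was not tested. Regions past the stricter threshold with ZNF184 alone, RANGAP1 alone and both were 420, 359 and 54 at a log2 fold of at least 2, and 48, 18 and 7 at 4. Medians by transcript part were not run, since no annotation of hg19 was used here. The median matched peak had 11 to 12 input reads.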
